A study of Rattus norvegicus with 24 samples.

Results

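Kidney gene expression was compared between rats given intravenous (i.v.) ABCB5+ cells and untreated rats of the same cystic strain. The comparison held 6 animals labelled ivABCB5 and 6 labelled Ctrl, 12 of the 24 samples of the series, and 12778 of the 17334 genes in the deposited tables had enough counts to be tested. All animals are labelled PKD/Mhm (Cy/+), a strain whose heterozygotes carry a missense change in Anks6, and were male and 8 months old when the left kidney was taken. Heterozygotes were picked out by abdominal palpation, and the genotype of single animals was not tested here. ABCB5+ cells are stromal cells from human skin that carry the transporter ABCB5 on their surface. They were injected monthly over 6 months, while Ctrl animals had no treatment and no vehicle injection is described for them. The cells were human and the tables list rat genes, so RNA of the injected cells was not measured here. The remaining groups of 6 animals, the same cells given intraperitoneally (i.p.) and the supernatant of the cells grown together with stimulated human macrophage-like THP-1 cells (CoCM), are used below only where the i.v. animals are set beside them.

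In the Cy/+ rat cysts grow mainly from the proximal tubule, the nephron segment that reabsorbs most of the filtered solutes and runs on mitochondrial and peroxisomal oxidation of fatty acids. As cysts enlarge, proximal transporters and oxidative enzymes are typically lost, while injury markers, matrix genes and immune cells accumulate. Immediate early genes, such as Jun, Fosb and Nr4a1, encode transcription factors and signalling brakes that cells make within minutes to hours of a stimulus, without prior protein synthesis. In whole kidney RNA, fewer cells of a type and less RNA per cell cannot be told apart.

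Animals 36 and 37 of the i.v. group stood apart from the other i.v. animals, so the counts, the lists and most named genes are given with and without them. On the first principal component of all genes, which held 56.31% of the variance, they scored 87.1 and 86.3, against -24.94 to -8.75 in the other 4 i.v. animals and -53.01 to 11.53 in Ctrl. Animal 38 of the i.p. group (80.83) and animal 39 of the CoCM group (97.42) lay beside them, so the 4 animals that stood apart carry consecutive numbers in 3 treated groups. Whether these 4 animals match their labels in strain genotype and treatment was not tested, and every value carried by animals 36 and 37 rests on those labels. Ctrl animals are numbered 1 to 24 and all treated animals from 26 upwards, and the order of the animals and the treatment cannot be told apart. Total counts were 11354048 to 14075796 in the i.v. group and 10405696 to 14125442 in Ctrl (two-sided exact permutation test, p = 0.662), and the difference between the groups on the first component did not pass the test (exact p = 0.171). Markers of the proximal tubule, thick ascending limb and collecting duct were present in all 12 kidneys, with at least 673 CPM of the phosphate transporter Slc34a1, 1220 CPM of Umod and 228 CPM of the water channel Aqp2 (CPM, each library's counts scaled to the same total by TMM).

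No gene differed between i.v. ABCB5+ and Ctrl after adjustment over all genes. In edgeR's quasi-likelihood test 0 of 12778 genes (0.0%) had a Benjamini-Hochberg adjusted p-value under 0.05, and the smallest adjusted p-value was 0.673. Unadjusted, 738 genes were under 0.05 (5.78%), 567 higher (4.44%) and 171 lower (1.34%) in the i.v. animals. DESeq2 gave 1 adjusted call (0.00783% of genes), Slc22a13, and 968 genes at an unadjusted p-value under 0.05 (7.58%). The adjusted count was also 0 with limma on log2 TPM (414 genes unadjusted, 3.24%, of them 175 higher, 1.37%, and 239 lower, 1.87%, so that the balance turned), with limma voom and quality weights (854, 6.68%) and with edgeR on the 12 samples alone (455, 3.62%). Every single gene named below therefore missed the adjusted threshold in edgeR, the p-values printed are unadjusted unless named otherwise, and the genes are described by their levels.

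Most of the unadjusted count came from animals 36 and 37. Without them, 106 of 12899 genes (0.822%) had an unadjusted p-value under 0.05, 53 higher (0.411%) and 53 lower, the adjusted count was again 0 and the smallest adjusted p-value was 1.0. Of the 738 genes, 56 were past the unadjusted threshold in the same direction without the pair, 30 of them higher and 26 lower, and 71 had the opposite sign. With all animals 250 genes were over 2-fold higher and 54 over 2-fold lower, and without the pair 15 and 46. In 56.3% of genes, animals 36 and 37 were either the highest pair (3508 genes) or the lowest pair (3691 genes) of the i.v. group. The median SD of log2 CPM was 0.317 in the i.v. group, 0.186 without the pair and 0.232 in Ctrl.

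Other single animals also moved the unadjusted count. It was 250 without i.v. animal 36 and 176 without 37, and it was 329 without Ctrl animal 1 and 424 without Ctrl animal 12. It was 1247 without Ctrl animal 24, 1301 without i.v. animal 28, 1191 without 33, 1128 without 42 and 1186 without 43. No adjusted call appeared when any of the 12 animals was left out.

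**Figure D1:**
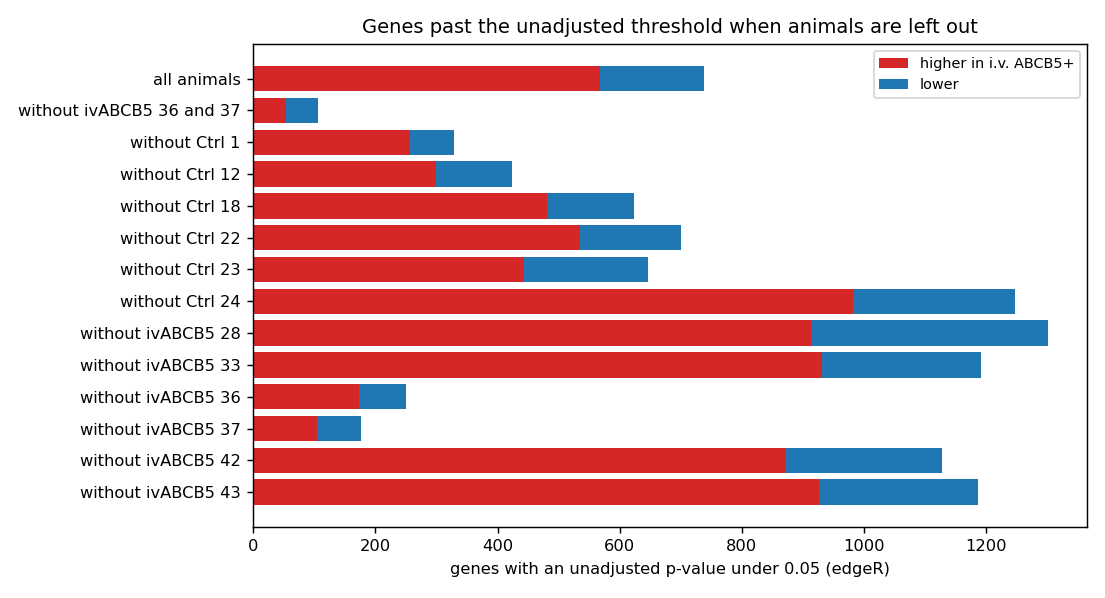
Number of genes with an unadjusted p-value under 0.05 (edgeR, i.v. ABCB5+ against Ctrl, x axis) with all animals, without animals 36 and 37, and without each of the 12 animals in turn (y axis); red bars count genes higher and blue bars genes lower in i.v. ABCB5+. The bar shrinks from 738 genes to 106 without animals 36 and 37, and grows to 1301 without animal 28.

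Of the leading higher genes, Csrnp1, Jun, Nr4a1, Cebpb and Ifrd1 were above the Ctrl mean in every i.v. animal, and Slc22a13 and Aldh1b1 stood out in the pair alone. Jun and Nr4a1 belong to the list of immediate early genes described below, and the other 3 do not. To show the sequence beside the values, the 250 bases before the transcription start of Nr4a1 and Cebpb were read from the RefSeq promoter table of rat build GRCr8, 5' to 3' on the gene's strand. Capitals mark TGACG or its reverse complement CGTCA, the core of the cAMP response element bound by CREB and ATF proteins. The full element TGACGTCA was searched on both strands as well, and it contains the core on each strand.

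Nr4a1, chr7:134259888-134260137 (+): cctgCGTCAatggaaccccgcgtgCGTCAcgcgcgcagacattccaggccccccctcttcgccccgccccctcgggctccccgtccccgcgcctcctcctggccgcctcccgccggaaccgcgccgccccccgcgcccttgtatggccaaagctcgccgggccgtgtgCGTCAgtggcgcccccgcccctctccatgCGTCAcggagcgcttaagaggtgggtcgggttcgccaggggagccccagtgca

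Cebpb, chr3:176816755-176817004 (+): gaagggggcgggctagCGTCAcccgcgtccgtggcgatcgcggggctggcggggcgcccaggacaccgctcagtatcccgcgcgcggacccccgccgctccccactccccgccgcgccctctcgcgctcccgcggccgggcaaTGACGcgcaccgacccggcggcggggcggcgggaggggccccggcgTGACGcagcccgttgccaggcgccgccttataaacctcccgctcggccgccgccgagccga

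The Nr4a1 promoter held 4 such cores and the Cebpb promoter 3, neither with the full element. Among 27457 rat promoters of this length, 19.0% held at least 1 core, 0.92% at least 3, 0.19% at least 4, and 1.7% the full element. Dusp1 held 3 cores and the full element, Ifrd1 and Rasd1 held 1 each, and Fosb, Noct and Per1 held 0 in this window. The promoters of Csrnp1, Jun, Gem and Atf3 were not analysed here. A match describes letters only, and binding was not measured.

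Csrnp1, a nuclear protein induced by AXIN1, had the second smallest p-value of all named higher genes. Its level was 34.3, 34.1, 51.9, 38.8, 32.9 and 43.4 CPM in i.v. animals 28, 33, 36, 37, 42 and 43, and 21.9, 17.2, 22.4, 25.5, 27.2 and 22 CPM in Ctrl animals 1, 12, 18, 22, 23 and 24. All 6 i.v. animals lay above all 6 Ctrl animals. The log2 fold change was 0.79 ± 0.19 (SE; edgeR adjusted p = 0.673), and 0.66 ± 0.21 without animals 36 and 37.

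Jun, the AP-1 transcription factor subunit, followed the same order. It stood at 390, 386, 510, 441, 447 and 458 CPM in the i.v. animals and at 342, 303, 278, 342, 321 and 289 CPM in Ctrl, with no overlap. The log2 fold change was 0.49 ± 0.14, and 0.41 ± 0.16 without the pair.

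Nr4a1, an orphan nuclear receptor induced early by many stimuli, had a larger fold change and a wider spread. Its levels were 218, 118, 197, 94.4, 85.2 and 244 CPM in i.v. animals and 87.4, 41.3, 49.8, 50.6, 84.4 and 54.4 CPM in Ctrl. The i.v. range began at 85.2 CPM, in animal 42, just under the highest Ctrl value, in animal 1. The log2 fold change was 1.38 ± 0.43 with all animals and 1.44 ± 0.47 without the pair.

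Cebpb, a transcription factor of the acute phase response, had the smallest p-value among the higher genes named without the pair. It measured 148, 92.2, 108, 65.9, 67.7 and 140 CPM in the i.v. animals against 76.1, 51.2, 62.0, 76.0, 58.9 and 65.1 CPM in Ctrl. Animals 37 and 42 lay within the Ctrl range and the other 4 above it. The log2 fold change was 0.68 ± 0.19 with all animals and 0.78 ± 0.21 without the pair.

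Ifrd1, a transcriptional co-regulator, was at 80.3, 75.3, 90.1, 94.1, 63.9 and 84.5 CPM in i.v. animals and 53.4 to 69.6 CPM in Ctrl, so that only animal 42 fell in the Ctrl range. Its log2 fold change was 0.37 ± 0.09 with all animals and 0.26 ± 0.10 without the pair. Noct, a nocturnin with a daily rhythm, was highest in animals 36 and 37 (32.5 and 33.2 CPM), with 15 to 19.9 CPM in the other i.v. animals and 10.4 to 16.7 CPM in Ctrl. Its log2 fold change was 0.80 ± 0.23, and 0.41 ± 0.20 without the pair.

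Rasd1, Gem, Dusp10, Mis18a and Adat3 were among the leading higher genes only when the pair was left out. Rasd1, a small GTPase induced by glucocorticoid, was at 29.8 to 44.2 CPM in i.v. animals 28, 33, 42 and 43, above all Ctrl animals (16.5 to 25.5 CPM), at 29.1 CPM in animal 36 and at 13.4 CPM in animal 37. Its log2 fold change was 0.57 ± 0.22 with all animals and 0.76 ± 0.21 without the pair. Gem, a GTP-binding protein that restrains calcium channels, ranged from 40.1 to 83.2 CPM in those 4 animals and from 27.5 to 42.4 CPM in Ctrl, and stood at 19.0 CPM in animal 37. Dusp10, a phosphatase of stress kinases, gave 8.24 to 9.56 CPM in the 4 animals and 3.16 CPM in animal 37, against 5.04 to 7.70 CPM in Ctrl. Mis18a, a centromere factor, and Adat3, a tRNA deaminase subunit, had log2 fold changes of 0.70 ± 0.22 and 0.37 ± 0.12 without the pair.

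**Figure D2:**
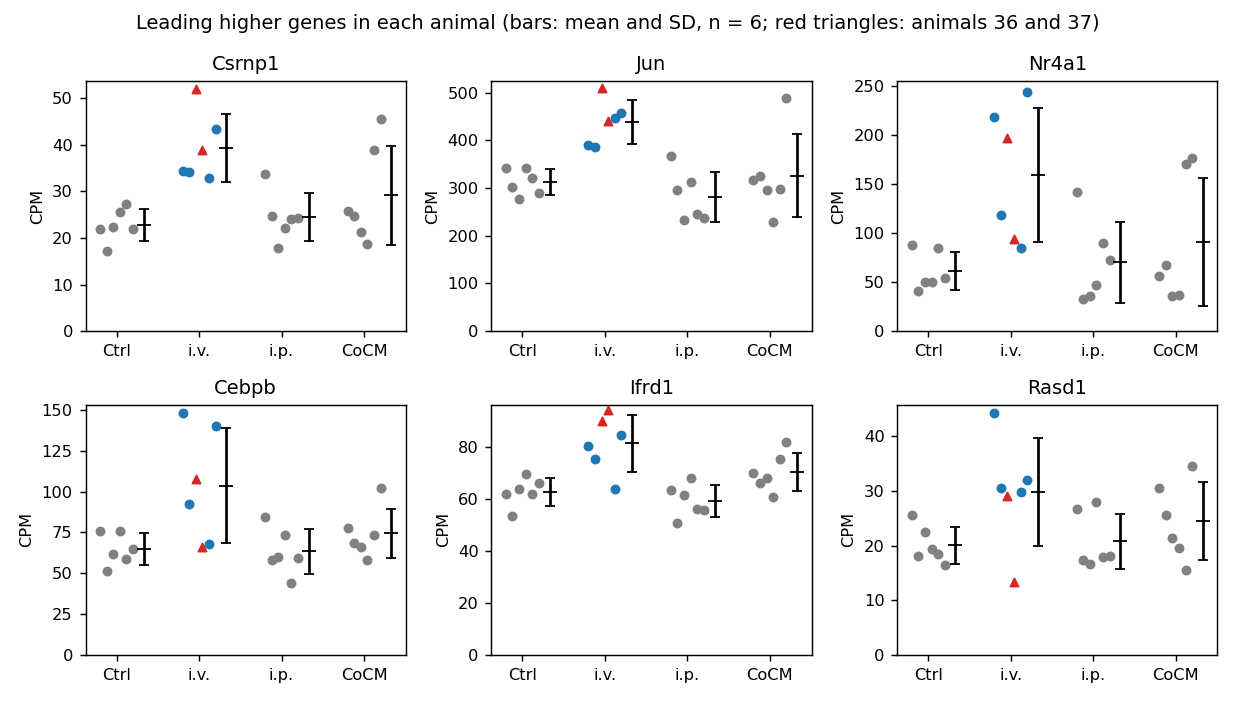
CPM (y axis, from 0) of 6 leading higher genes in each of 24 animals, by group (x axis); points are animals, red triangles are i.v. animals 36 and 37, and bars give the mean and SD of 6 animals. In Csrnp1 and Jun every i.v. animal lies above every Ctrl animal, and in Rasd1 animal 37 lies below all Ctrl animals.

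Of the 17 immediate early genes listed, 5 had an unadjusted p-value under 0.05 with all animals, all higher, and 0 had an adjusted one, against 4.44% of all genes higher at the unadjusted threshold. The 5 were Jun, Nr4a1, Fosb, Dusp1 and Zfp36. Without the pair there were again 5, Jun, Nr4a1, Fosb, Atf3 and Btg2, against 0.411% of all genes. The list had 14 of 17 fold changes above 0 and a median log2 fold change of 0.41, and 17 of 17 and 0.34 without the pair, where the median of all genes was 0.013 and -0.014. When single animals were left out, the list median ranged from 0.21 to 0.52.

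Fosb, a partner of Jun, reached 13.7 to 44.5 CPM in the i.v. animals and 3.67 to 12.2 CPM in 5 Ctrl animals, while Ctrl animal 1 stood at 24.8 CPM. Dusp1, a phosphatase that switches off MAP kinases, was at 103 to 248 CPM in the i.v. group and 73.1 to 182 CPM in Ctrl, again highest in Ctrl animal 1. Their log2 fold changes were 1.41 and 0.73, and 1.59 and 0.43 without the pair. The mean centred log2 CPM of the list, a score per animal, was 0.739 in Ctrl animal 1 and -0.416 to 0.044 in the other 5 Ctrl animals. In the i.v. group it was 0.688, 0.455, 0.418 and 0.682 in animals 28, 33, 42 and 43, 0.141 in animal 36 and -0.384 in animal 37. Fos and Egr1, the best known members, had log2 fold changes of 0.41 ± 0.45 and 0.56 ± 0.38 (0.34 and 0.66 without the pair), and both were highest in Ctrl animal 1 (115 and 173 CPM).

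The same kidneys were set against the i.p. group, which received the same cells. The i.v. against i.p. contrast shares the i.v. animals with the contrast above and is not independent of it. It gave 0 of 12778 genes at an adjusted p-value under 0.05 in edgeR (smallest 0.824) and 274 at an unadjusted one (2.14%), 186 higher (1.46%) and 88 lower (0.689%) in i.v. animals. Without animals 36 and 37 there were 232 (1.8%), 103 higher (0.799%) and 129 lower (1.0%), and again 0 adjusted. With all animals DESeq2 called 1 gene, Ifrd1, at an adjusted p-value of 0.0499. Jun and Csrnp1, whose i.v. animals did not overlap Ctrl, are given first. Mean Jun was 439 ± 45.9 CPM (SD, n = 6) in the i.v. group and 281 ± 52.9 CPM in the i.p. group, a log2 difference of 0.64 (edgeR adjusted p = 1.0). Csrnp1 averaged 39.2 ± 7.34 CPM after i.v. and 24.5 ± 5.25 CPM after i.p. injection, a log2 difference of 0.68 (adjusted p = 1.0). Without the pair the log2 differences were 0.57 for Jun and 0.56 for Csrnp1 (adjusted p = 0.986 for both). The i.v. and i.p. ranges overlapped for Csrnp1, where i.p. animal 29 had 33.8 CPM, and not for Jun. Nr4a1 was 1.18 higher on the log2 scale after i.v. injection, Cebpb 0.71, Noct 0.71, Rasd1 0.52 and Gem 0.58, and without the pair 1.25, 0.82, 0.33, 0.71 and 0.86.

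Single animals of the other treated groups also had high early gene levels. CoCM animals averaged 326 ± 86.9 CPM of Jun and 29.2 ± 10.6 CPM of Csrnp1, and CoCM animal 40 reached 489 and 45.5 CPM, within the i.v. range. The immediate early score was 0.642 in i.p. animal 29 and -0.664 to -0.104 in the other i.p. animals. CoCM animal 40 scored 0.996, more than any i.v. kidney, and the remaining CoCM kidneys scored -0.547 to 0.032.

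Slc22a13 had the largest fold change and smallest p-value of the leading genes, and it was carried by the pair. This organic anion transporter of the tubule was at 35.7 and 87.8 CPM in animals 36 and 37 and at 1.14 to 2.52 CPM in the other i.v. animals, beside 0.782 to 2.31 CPM in Ctrl. Its log2 fold change was 3.81 ± 0.90 with all animals (adjusted p = 0.673 in edgeR, 0.00783 in DESeq2) and 0.24 ± 0.46 without the pair. Aldh1b1, a mitochondrial aldehyde dehydrogenase, was at 12.6 and 21.1 CPM in the pair and at 1.18 to 1.84 CPM in the other i.v. animals, and its log2 fold change went from 2.33 to 0.21. Sox13, a transcription factor, was at 160 and 156 CPM in the pair and 87.9 to 101 CPM in the others, against 70.1 to 101 CPM in Ctrl, with log2 fold changes of 0.49 and 0.19. Chrna5, a nicotinic receptor subunit, kept more of its difference, with log2 fold changes of 1.02 ± 0.26 and 0.50 ± 0.21. Polr3d, a subunit of RNA polymerase III, went from 0.18 to 0.13, Ppp1r16a from 0.33 to 0.15, and the adaptor Traf4 from 0.30 to 0.15.

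**Figure D3:**
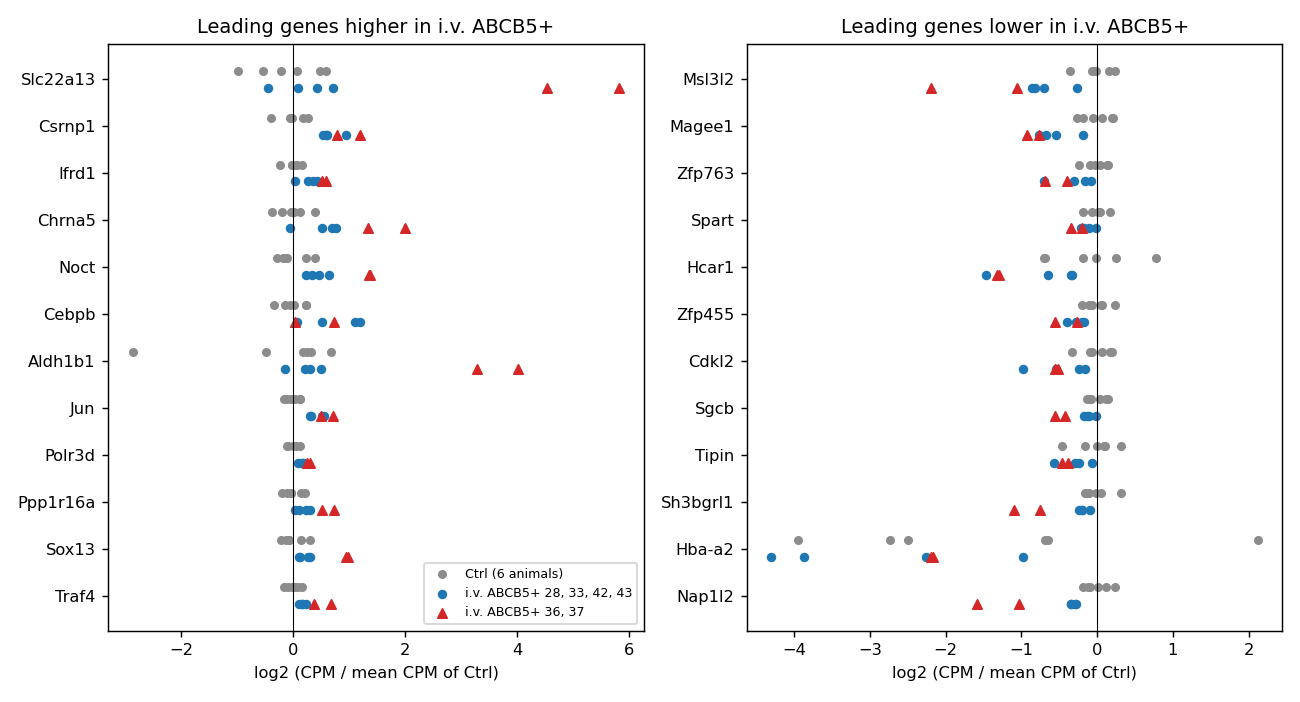
Level of the 12 leading genes in each direction in each animal, as log2 of CPM over the Ctrl mean (x axis), with genes ordered by p-value on the y axis; grey points are Ctrl animals, blue points i.v. animals 28, 33, 42 and 43, and red triangles animals 36 and 37. Slc22a13 and Aldh1b1 are high only in the red triangles, whereas all i.v. points of Csrnp1 and Jun lie to the right of the grey ones.

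The leading lower genes were mostly of low level, with small differences. Msl3l2, related to the MSL chromatin complex, had 2.84, 3.16, 2.47, 1.12, 4.28 and 2.90 CPM in the i.v. animals and 4.01 to 6.04 CPM in Ctrl, a log2 fold change of -0.87 ± 0.25 that was -0.66 ± 0.24 without the pair. Magee1, a MAGE family protein, was at 1.86 to 3.13 CPM against 2.94 to 4.09 CPM, with log2 fold changes of -0.62 and -0.54. Hcar1, the lactate receptor, was at 1.26 to 2.75 CPM against 2.13 to 5.95 CPM (-0.82 ± 0.28, and -0.65 ± 0.32 without the pair). The zinc finger genes Zfp763 and Zfp455 had log2 fold changes of -0.37 and -0.30, Cdkl2 of -0.47, the replication fork protein Tipin of -0.32, the sarcoglycan Sgcb of -0.23 and Spart of -0.17. Without the pair they were -0.30, -0.27, -0.46, -0.29, -0.12 and -0.14, in the same order, and Sh3bgrl1 went from -0.39 to -0.19. Amotl2, a Hippo pathway scaffold, Leprotl1, Ift70a1 and the netrin receptor Unc5a led the lower genes only without the pair, at -0.35, -0.22, -0.39 and -0.86.

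Haemoglobin and urothelial genes were at a lower level in the i.v. group, with high values in 1 or 2 Ctrl kidneys. Hba-a2, an alpha globin, was at 4840 CPM in Ctrl animal 1, 71.9 to 708 CPM in the other Ctrl animals and 56.4 to 562 CPM in the i.v. animals, and its log2 fold change of -2.23 ± 0.82 became -0.63 without Ctrl animal 1 and was -2.26 without i.v. animals 36 and 37. Of 5 erythroid genes tested, Hbb, Hba-a1, Hba-a2 and Alas2 were lower at an unadjusted p-value under 0.05, beside 1.34% of all genes, and the list median of -2.14 was -0.34 without Ctrl animal 1. Without the i.v. pair, Hba-a2 and Alas2 were past the threshold (0.411% of all genes were lower) and the median was -2.2. The summed level of the list was 345 to 1360 CPM in i.v. and 282 to 10100 CPM in Ctrl kidneys. Upk1a and Upk1b, plaque proteins of the urothelium that lines the renal pelvis, were at 31.6 and 18.4 CPM in Ctrl animal 22, and their log2 fold changes of -2.29 and -1.69 were -1.03 and -0.54 without it. Without i.v. animals 36 and 37 they were -3.24 and -1.72. With all animals 2 of 2 urothelial genes tested were lower at an unadjusted p-value under 0.05 (1.34% of all genes were), with a median of -1.99. Without the pair 4 of 4 were (0.411% of all genes), with a median of -4.63. The added genes passed the count filter only in that fit, so the medians cover different genes and the larger count is no further evidence. Upk1a was also at 10.6 CPM in Ctrl animal 12. The keratin Krt15, whose symbol is not among the urothelial markers as written, was testable only without the pair. It was at 9.89 and 17.2 CPM in Ctrl animals 12 and 22 and at most 2.70 CPM in the other Ctrl animals. The urothelial list's summed level was 1.53 to 10.9 CPM in i.v. and 2.87 to 110 CPM in Ctrl kidneys.

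In 14 genes (0.11%) the 6 i.v. animals did not overlap the 6 Ctrl animals. With shuffled group labels, a gene would separate fully in either direction with a probability of 0.00216 (exact permutation of 6 against 6). The 0.11% found lies below that share, so full separation is by itself no evidence of a difference in these genes. The 7 higher genes (0.0548%) were Jun, Csrnp1, Atf4, Ptbp1, Erf, Zfp410 and Abhd10. Atf4, the transcription factor of the integrated stress response, was at 281 to 347 CPM in i.v. and 239 to 279 CPM in Ctrl kidneys, with a log2 fold change of 0.20 ± 0.07 and 0.11 ± 0.07 without the pair. Erf, a repressor of ETS target genes, was at 89.3 to 114 CPM against 80.2 to 87.7 CPM (0.21, and 0.22 without the pair). The splicing regulator Ptbp1 was at 393 to 404 CPM against 370 to 383 CPM (0.08 and 0.07), and its log2 fold change was -0.0027 in limma on log2 TPM.

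The 7 lower genes (0.0548%) were Pcdha4, Arb2a, Rabif, Nap1l2, Plac9, Alg6 and Cd274. Pcdha4, a protocadherin, was at 1.49 to 10.3 CPM against 10.9 to 12.7 CPM, with log2 fold changes of -0.86 and -0.51 without the pair. Cd274, which encodes the checkpoint ligand PD-L1, was at 0.279 to 1.44 CPM against 1.46 to 2.10 CPM (-0.85 and -0.57). Alg6, a glucosyltransferase of N-glycan assembly, was at 17.4 to 20.8 CPM against 21.1 to 22 CPM (-0.18 and -0.17). Without animals 36 and 37, 38 genes (0.295%) did not overlap, 20 higher (0.155%) and 18 lower (0.14%). With fewer i.v. animals full separation is more likely under shuffled labels, so the larger count is no further evidence.

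Tubular transporters had higher levels in the i.v. group through animals 36 and 37. Of 58 organic ion and nutrient transporters, 48 had a fold change above 0 and 10 were higher at an unadjusted p-value under 0.05 (0 adjusted), where 4.44% of all genes were, with a median log2 fold change of 0.73. Without the pair 35 were above 0, 0 passed the unadjusted threshold in either direction, and the median was 0.02. Slc22a7, an organic anion transporter, was at 13.5 and 27 CPM in the pair, 0.575 to 2.85 CPM in the other i.v. animals and 0 to 3.78 CPM in Ctrl. Slco1a1, an organic anion transporting polypeptide, was at 405 and 368 CPM in the pair, 17.2 to 72.5 CPM in the others and 3.12 to 134 CPM in Ctrl. The p-aminohippurate transporter Slc22a6 measured 1140 and 1320 CPM in the pair and 201 to 653 CPM in the other i.v. animals. The log2 fold changes of Slc22a7, Slco1a1 and Slc22a6 were 2.84, 1.93 and 0.94, and 0.41, 0.02 and 0.11 without the pair.

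Proximal tubule markers followed the same split. Slc34a1, the brush border phosphate transporter, was at 5550 and 6610 CPM in animals 36 and 37, 1170 to 3110 CPM in the other i.v. animals and 673 to 3060 CPM in Ctrl. Its log2 fold change was 0.93 ± 0.49, and 0.13 ± 0.47 without the pair. Of 20 markers, Slc22a7, Slc7a13, Aqp1 and Ggt1 were higher at an unadjusted p-value under 0.05 (4.44% of all genes), and without the pair 0 were. The summed level of the 20 markers was 27700 and 32400 CPM in the pair, 6210 to 14800 CPM in the other i.v. animals and 3960 to 14500 CPM in Ctrl, and its part in the transport and metabolic results was not tested. Of 10 thick ascending limb markers 10 had a fold change above 0, with a median of 0.40 (0.06 without the pair), and Umod, the main protein of that segment, was at 6590 and 9330 CPM in the pair against 1630 to 5130 CPM in the other i.v. animals (0.76, and 0.06 without the pair).

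The oxidative lists showed the same pair. Of 72 nuclear genes of oxidative phosphorylation, 72 had a fold change above 0 with a median of 0.33, 0 passed the unadjusted threshold, and without the pair 7 were above 0 with a median of -0.05. The ATP synthase subunit Atp5f1b was at 3960 and 4630 CPM in the pair, 1890 to 2400 CPM in the other i.v. animals and 1700 to 2550 CPM in Ctrl (0.40, and -0.02 without the pair). In the citrate cycle 22 of 22 genes were above 0 (median 0.38), and 4 of 22 without the pair (-0.03). Of 25 fatty acid oxidation genes 24 were above 0 (0.41), with Acadm and Acads past the unadjusted threshold (4.44% of all genes were, higher), and 6 without the pair (-0.05). Acadm, the medium-chain acyl-CoA dehydrogenase, was at 704 and 784 CPM in the pair and at 213 to 270 CPM in the other i.v. animals, beside 173 to 343 CPM in Ctrl.

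Peroxisome genes were above 0 in 42 of 51 (median 0.33, 6 higher past the unadjusted threshold beside 4.44% of all genes) and in 14 of 51 without the pair (-0.05, 0 past it). Catalase, Cat, the peroxisomal enzyme that breaks down hydrogen peroxide, had 2090 and 1920 CPM in the pair, 409 to 605 CPM in the other i.v. animals and 198 to 964 CPM in Ctrl (1.07, and -0.01 without the pair). Branched-chain amino acid degradation went from 20 to 1 of 22 genes above 0, with medians of 0.48 and -0.05. Gclc, the rate-limiting enzyme of glutathione synthesis, was at 10600 and 11200 CPM in the pair, 525 to 1860 CPM in the other i.v. animals and 111 to 4290 CPM in Ctrl, where animal 24 was the highest. The glutathione list had 6 of 35 genes higher past the unadjusted threshold, the cytochrome P450 list had 7 of 37, beside 4.44% of all genes, and without the pair both had 0. Cyp1a1, a P450 enzyme induced through the aryl hydrocarbon receptor, was at 136 and 195 CPM in the pair, 0.575 to 7.63 CPM in the other i.v. animals and 0.265 to 17.0 CPM in Ctrl. The log2 fold changes of Gclc and Cyp1a1 were 1.88 and 4.11, and -0.06 and -0.07 without the pair. PPAR-alpha target genes had a median of 0.32, with Acadm, Acot2 and Pex11a of 27 past the unadjusted threshold (4.44% of all genes), and 0.0 without the pair.

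**Figure D4:**
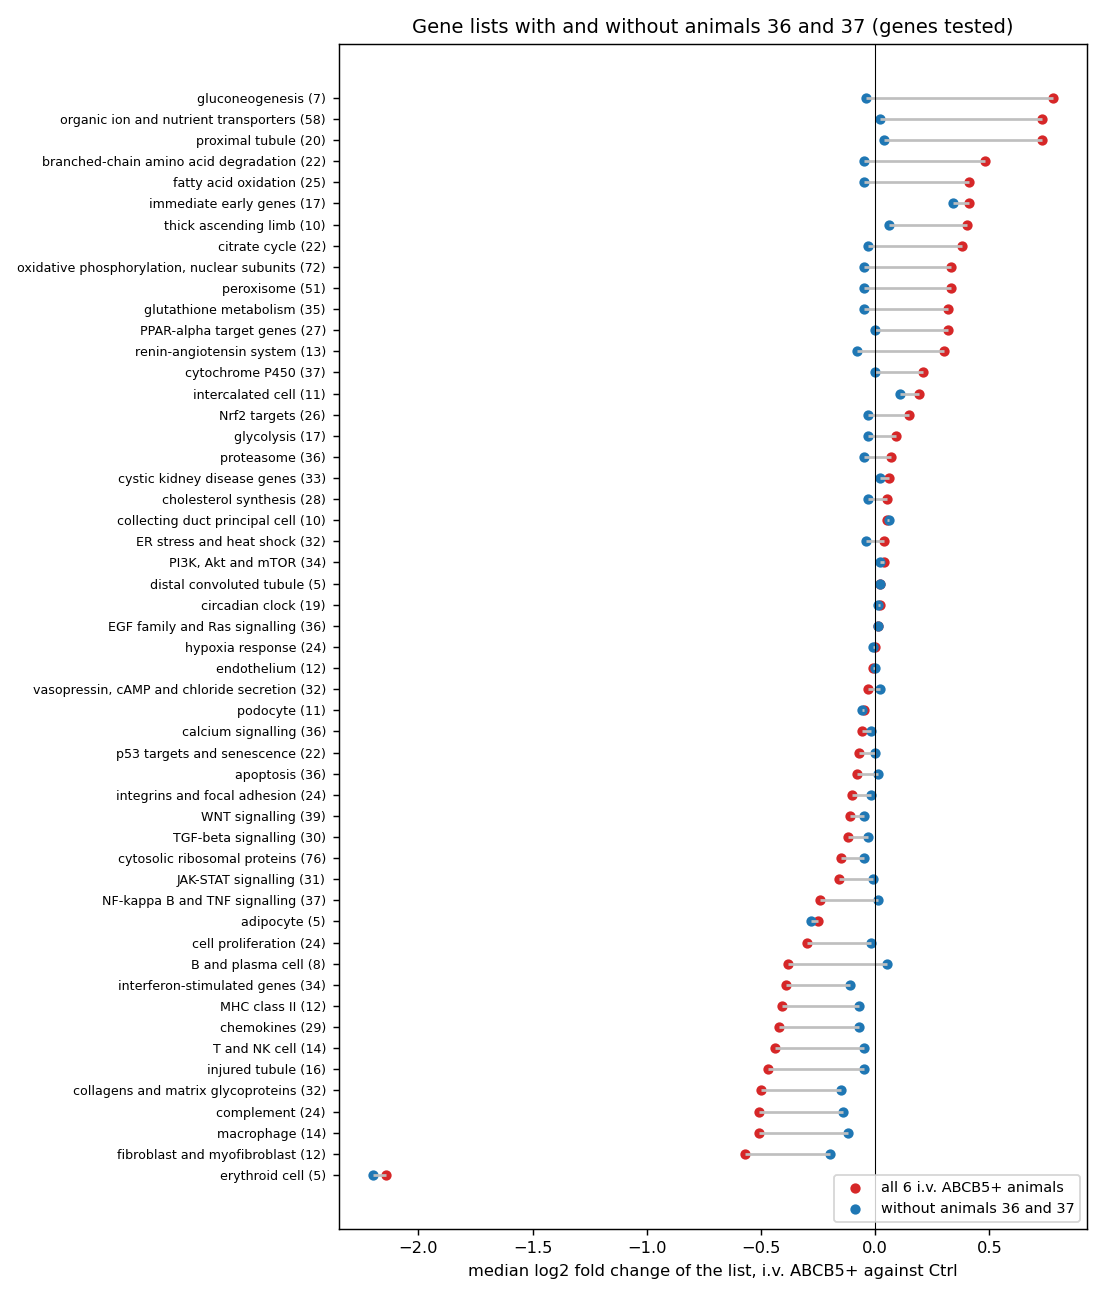
Median log2 fold change of i.v. ABCB5+ against Ctrl (x axis) for gene lists with at least 5 genes tested (y axis, number of genes tested in brackets); red points use all 6 i.v. animals and blue points leave out animals 36 and 37. The transporter median moves from 0.73 to 0.02 and the fibroblast median from -0.57 to -0.20, while the immediate early median is 0.41 and 0.34.

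Injury, matrix and immune genes were low in the same 2 kidneys. Of 16 injured tubule markers 1 had a fold change above 0, with a median of -0.47, and 6 did without the pair (-0.05). Spp1, the matricellular protein osteopontin, was at 641 and 670 CPM in animals 36 and 37, 6600 to 9960 CPM in the other i.v. animals and 6970 to 11000 CPM in Ctrl. Lcn2, the secreted injury marker lipocalin 2, was at 10.7 and 10.5 CPM in the pair and 117 to 173 CPM in the others. Havcr1, the proximal injury receptor KIM-1, was at 17.5 and 4.18 CPM in the pair, and at 80.1 to 191 CPM in the others. The log2 fold changes of all 3 genes were -0.49, -0.58 and -0.40 with all animals and 0.03, -0.06 and 0.11 without the pair.

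All 12 fibroblast and myofibroblast markers had a fold change under 0 (median -0.57), as did 11 of 12 without the pair (-0.20). Col1a1, a chain of the main interstitial collagen, was at 95.5 and 100 CPM in the pair and 281 to 415 CPM in the other i.v. animals. Col3a1, which encodes type III collagen, was at 107 and 142 CPM in the pair and 414 to 735 CPM in the others. Their log2 fold changes were -0.57 and -0.65, and -0.19 and -0.22 without the pair. Of 32 collagen and matrix glycoprotein genes 29 were under 0 (median -0.50) and 25 without the pair (-0.15). None of these genes passed the unadjusted threshold in either fit. All 14 macrophage markers were under 0 (-0.51), and 13 without the pair (-0.12). Cd68, a lysosomal protein of macrophages, was at 13.6 and 16.7 CPM in the pair, 54.9 to 86.2 CPM in the other i.v. animals and 46.9 to 102 CPM in Ctrl (-0.51, and -0.09 without the pair). The summed level of the macrophage markers was 464 and 620 CPM in the pair, 1480 to 2750 CPM in the others and 1330 to 3330 CPM in Ctrl.

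Complement, chemokine and MHC class II genes had medians of -0.51, -0.42 and -0.41, and of -0.14, -0.07 and -0.07 without the pair. Interferon-stimulated genes were the immune list with the most members past the unadjusted threshold, 4 of 34 lower (Irf7, Rsad2, Ifih1 and Eif2ak2) beside 1.34% of all genes, with a median of -0.39 and with 32 of 34 under 0 in both fits. Without the pair 0 of them passed, and the median was -0.11. Ifih1, a sensor of viral RNA, was at 12.4 to 26.5 CPM in the i.v. group and 23 to 32.6 CPM in Ctrl (-0.38, and -0.21 without the pair). The T and NK cell list had Ccl5 alone of 14 genes past the threshold (1.34% of all genes were lower), at 2.47 to 13.1 CPM against 3.73 to 19.7 CPM (-0.84, and -0.57 without the pair).

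**Figure D5:**
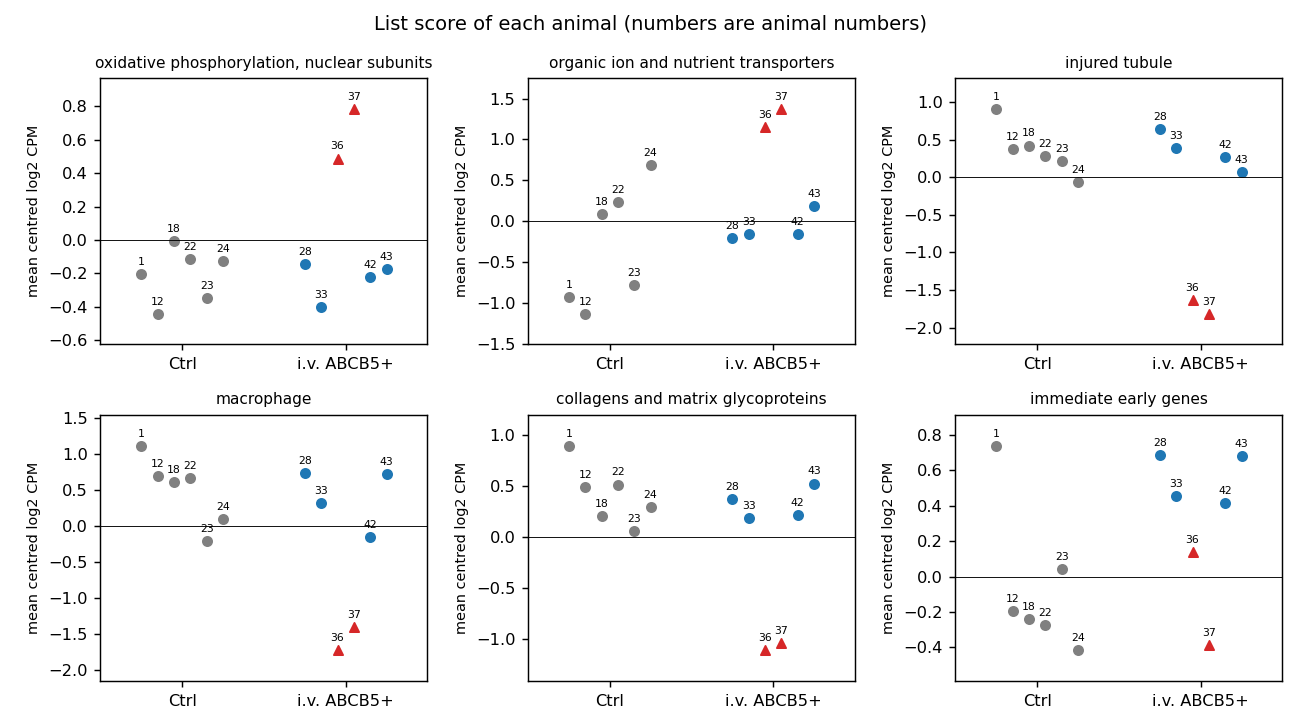
Score of 6 gene lists (y axis, mean centred log2 CPM of the list) in each Ctrl and i.v. ABCB5+ animal (x axis, with animal numbers beside the points); red triangles are animals 36 and 37. Both triangles lie above all other points in the oxidative phosphorylation and transporter lists and below all of them in the injured tubule, macrophage and matrix lists, and animal 37 is the lowest of the i.v. group for immediate early genes.

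Animals 38 and 39 of the other treated groups lay on the side of the pair in the same genes. Spp1 was at 426 CPM in i.p. animal 38 and 370 CPM in CoCM animal 39, Lcn2 at 9.93 and 7.97 CPM, and Slc34a1 at 4050 and 5180 CPM. When these 2 animals were left out together with 36 and 37, 159 genes had an unadjusted p-value under 0.05 and 0 an adjusted one. Within Ctrl, animal 1 had the highest Lcn2 (292 CPM) and animal 24 the lowest (81.6 CPM), and animal 24 had the highest Umod (5700 CPM).

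Genes of cystic disease were close to 0 as a list. Of 33 genes tested 24 had a fold change above 0, the median was 0.06 (0.02 without the pair), and 2 genes, Anks6 and Bbs2, had an unadjusted p-value under 0.05, a share near the 5.78% of all genes. Anks6, the ciliary protein that carries the missense change of this strain, was at 55.4, 70.8, 82.2, 118, 62.0 and 69.6 CPM in the i.v. animals and at 49.0, 48.8, 45.3, 71.2, 56.8 and 70.1 CPM in Ctrl. The groups overlapped, with animals 36 and 37 above every Ctrl animal. Its log2 fold change was 0.43 ± 0.15, and 0.17 ± 0.12 without the pair. Bbs2, a subunit of the ciliary BBSome, went from 0.53 to 0.02. Pkd1 and Pkd2, the polycystins mutated in human dominant disease, had log2 fold changes of -0.12 ± 0.18 and -0.18 ± 0.10, and of 0.03 and -0.07 without the pair.

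Among 32 genes of vasopressin, cAMP and chloride secretion, 2 passed the unadjusted threshold, Clcn2 and Cftr, which is near the share of all genes (5.78%). Clcn2, a chloride channel, was at 45.6 and 56.5 CPM in the pair, 21.9 to 30 CPM in the other i.v. animals and 14.8 to 28.2 CPM in Ctrl, with log2 fold changes of 0.66 ± 0.23 and 0.22 ± 0.20. Cftr, the cAMP-gated chloride channel, was at 6.93 and 12.6 CPM in the pair and 0.839 to 1.87 CPM in the other i.v. animals, and its log2 fold change went from 1.25 to -0.18. The list median was -0.03, and 0.02 without the pair.

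Of the growth and inflammatory lists, cell proliferation genes had a median of -0.30 with 21 of 24 under 0, and NF-kappa B and TNF genes a median of -0.24 with 29 of 37 under 0. Without the pair the medians were -0.02 and 0.01. The cyclin Ccnb1 was past the unadjusted threshold with all animals (0.45, and 0.28 without the pair), and the NF-kappa B inhibitor Nfkbia without the pair (0.41, and 0.21 with all animals). Among 34 genes of PI3K, Akt and mTOR signalling, Rps6kb2, Sgk1 and Akt1s1 were higher at an unadjusted p-value under 0.05 (4.44% of all genes), and the median was 0.04. Rps6kb2, a kinase of ribosomal protein S6, was at 43.2 to 57.0 CPM in i.v. and 36 to 51.8 CPM in Ctrl kidneys, and its log2 fold change of 0.25 ± 0.09 was 0.26 ± 0.10 without the pair. Sgk1, a kinase induced by glucocorticoid and aldosterone, was at 382 to 709 CPM against 181 to 557 CPM, with log2 fold changes of 0.61 ± 0.28 and 0.56 ± 0.30. The clock gene Per1 was at 117 to 256 CPM in the i.v. group and 46.3 to 173 CPM in Ctrl (0.71 ± 0.35, and 0.80 ± 0.38 without the pair), whereas the 19 clock genes together had a median of 0.02.

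WNT signalling had 1 of 39 genes past the unadjusted threshold (Wnt4, -0.83 ± 0.40 and -0.60 without the pair), TGF-beta signalling 1 of 30 (Bmp4, 0.68 ± 0.29 and -0.03 without the pair) and JAK-STAT signalling 1 of 31 (Il4r, 0.35 ± 0.14 and 0.13), each under the share of all genes (5.78%). In these lists 25 of 39, 23 of 30 and 23 of 31 genes were under 0, with medians of -0.11, -0.12 and -0.16. Without the pair 23, 18 and 17 were, with medians of -0.05, -0.03 and -0.01. Among the JAK-STAT genes Socs1, a feedback inhibitor of cytokine receptors, passed the unadjusted threshold without the pair (0.49 ± 0.19, and 0.32 with all animals). Nfil3, a clock gene, did so as well (0.64 ± 0.30). With single animals left out the log2 fold change of Nfil3 was 0.04 to 0.42, and it was -0.03 in limma on log2 TPM. Gadd45g, a stress-induced gene of the apoptosis list, had a log2 fold change of 0.60 ± 0.29, and 0.20 ± 0.24 without the pair. Gdf15, a stress cytokine, was at 62.6 to 66.5 CPM in 5 i.v. animals, 46.8 CPM in animal 43 and 37.1 to 61.3 CPM in Ctrl (0.39 ± 0.15, and 0.32 ± 0.18 without the pair). The medians of calcium, EGF family and hypoxia genes were -0.06, 0.01 and 0.0, with 0 of their 36, 36 and 24 members past the unadjusted threshold.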

How the data were processed

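RNA of the whole left kidney was sequenced in 24 rats, 6 per group. The authors deposited for each animal estimated counts per Entrez gene and TPM values. Trim Galore 0.6.4, kallisto and build rn6 are named in the submitters' processing notes, and the study's methods name a human transcript package for the summary per gene, so how transcripts were assigned to genes is not settled. The deposited TPM values, scaled by transcript length and library total, were used for 1 alternative.

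Estimated counts were rounded. Genes were kept by filterByExpr (12778), libraries scaled by TMM, and all 24 samples fitted with a mean per group in edgeR 4.0.16 (R 4.3.3, quasi-likelihood F-test, Benjamini-Hochberg over all genes tested, threshold 0.05). Each SE was taken as the size of the log2 fold change over the root of its F statistic. The study used DESeq2, run here as an alternative (1.42.0), as was limma 3.58.1. On simulated data 91% of 200 genes changed 4-fold were recovered in this comparison of 12730 genes, with 4.71% false among the calls. Symbols came from a RefSeq table (17179 of 17334 identifiers).

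The members, lists and tests were chosen with earlier results of these data known. Named genes were those with average log2 CPM above 1 and, in each direction, the 12 smallest p-values, the 8 smallest without animals 36 and 37, the 6 that moved most without them, the member of each list with the smallest p-value in each direction with the list's preset main members, and Anks6. Abcb5 was not analysed here. Genes whose groups did not overlap, the further early genes (Fosb, Atf3, Dusp1, Btg2, Zfp36) and members named beside small counts were chosen after their values were seen. Loci without a usable symbol are not named. Total counts were 9304601 to 14125442, and no 2 animals of a group agreed within sampling noise (chi-square per degree of freedom of 10.64 or more). A score is the mean over a list of log2 CPM (prior count 2) centred per gene. Results for some genes are not reported here.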

Additional observations from a re-analysis of the deposited data

Results flagged for a closer look

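Among 336 groups of 6 values examined, 31 held an animal whose gap to the nearest other exceeded Dixon's limit for 6 values. For independent, normally distributed values about 16.8 would be expected. Many of the values are CPM of genes that move together, and some genes were chosen after their values were seen, so the excess was not tested. Ctrl animal 1 accounted for 13 and Ctrl animal 24 for 7.

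Ctrl animal 1 was far above the other Ctrl animals in the blood genes Hba-a2 (4839 CPM, others up to 708.1), Hba-a1 (3731 CPM), Hbb (1384 CPM) and Alas2 (85.03 CPM). It was also the highest in the matrix and injury genes Postn (122.6 CPM), Mmp7 (35.9 CPM), Col1a1 (730.5 CPM), Col3a1 (1341 CPM), Lcn2 (291.5 CPM) and C3 (199.0 CPM). Dusp1 (181.7 CPM) and Ift70a1 (8.468 CPM) were highest in it too, and Abhd10 (3.709 CPM) lowest.

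Ctrl animal 24 was the highest of its group in the tubular genes Umod (5696 CPM), Gclc (4288 CPM), Slc7a13 (775.9 CPM), Osgin1 (282.2 CPM), Cyp1a1 (17.04 CPM), Cftr (3.161 CPM) and Serpinb12 (2.621 CPM). Ctrl animal 22 stood apart in Upk1a (31.57 CPM), Upk1b (18.41 CPM) and Socs1 (12.01 CPM), and Ctrl animal 23 in Bmp4 (32.76 CPM, the lowest) and in its total count (10405696, the lowest).

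In the i.v. group, animal 36 stood apart in Mis18a (55.55 CPM, the others 123.8 or more) and Unc5a (2.184 CPM, the highest). Animal 37 did so in Arb2a (32.16 CPM) and in the clock gene score (-0.181), both the lowest, and animal 43 in Gdf15 (46.78 CPM, the lowest) and Erf (114.5 CPM, the highest).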

How the results depend on the processing

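The adjusted count of i.v. ABCB5+ against Ctrl was 0 under every alternative except DESeq2, which gave 1, and so was the count against i.p. ABCB5+ (DESeq2, 1); leaving out each animal gave 0 to 0. The unadjusted count of 738 was 414 with limma on log2 TPM (175 higher, 239 lower), 455 with the 12 samples alone, 106 without animals 36 and 37, 137 without them in the samples compared alone and 159 without animals 36 to 39, and 176 to 1301 when each animal was left out. No paired analysis was possible because no animal number occurs in more than 1 group.

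Log2 fold changes that turned sign without animals 36 and 37 (in all samples, in the groups compared alone, and without animals 36 to 39) were those of Cyp1a1 (-0.07, -0.06, -0.06), Gclc (-0.06, -0.05, -0.05), Anpep (-0.07, -0.06, -0.06), Atp5f1b (-0.02, -0.01, -0.01), Ndufs1 (-0.02, -0.01, -0.01), Cftr (-0.18, -0.17, -0.17), Bmp4 (-0.03, -0.02, -0.02), Vwf (-0.09, -0.08, -0.08), Il24 (0.39 in each), Spp1 (0.03, 0.04, 0.04), Havcr1 (0.11, 0.12, 0.12) and C3 (0.01, 0.02, 0.02). In the first of these only, Cat (-0.01) and Acadm (-0.00036) did so. Pkd1 turned sign there too, as given above, and its values under the other alternatives are not reported here. With quality weights Il24 was 0.20, Atp5f1b -0.02, Havcr1 0.002 and C3 0.01, and on TPM Ptbp1 was -0.0027 and Nfil3 -0.03. With each animal left out, Il24 ranged from -0.53 to 0.08 (0.08 without 36 and without 37) and Mmp7 from -1.01 to 0.01 (0.01 without Ctrl animal 1). Slc22a13 passed the adjusted threshold in DESeq2 (3.82). The remaining fold changes of the genes followed through the alternatives kept their sign and their side of the threshold (1158 values, and 1329 with 1 animal left out). Not every named gene was followed in this way, and Pkd1 was not. Apart from the animals left out, the cause was not tested. The urothelial median had no value with at least 10 counts required in every sample. Differences in genes at a few counts were not detectable at this depth, where 3 counts are 0.2124 to 0.3224 CPM.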
